A study of Arabidopsis thaliana with 12 samples.

Results

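LPA19 (AT1G05385), CCB3 (AT5G36120) and ATAB2 (AT3G08010) are 3 nuclear genes of Arabidopsis thaliana whose products help to build the protein complexes of the thylakoid membrane. They were chosen by name, each with a probe that the platform annotation pairs with exactly 1 gene, and other assembly factors on the array are described further on. Each is read by 1 probe, so they are 3 of the 3439 probes on the array and 3 of the 692 probes that have a single gene.

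The study hybridised total RNA from wild-type plants, ecotype Columbia 0, to 12 arrays. The 6 pStau arrays carry plants given water for 4 h and then staurosporine for 4 h, at a dose the labels give as 25 mM and pH 5.5, and the 6 H2O arrays carry plants given water for 8 h. Staurosporine is a broad inhibitor of protein kinases. The labels name no organ, age or number of plants and do not say that arrays of a group came from different plants. The p-values therefore cover variation among these 12 arrays and nothing wider, and that variation may be technical. None of the 13 green tissue and root marker genes looked for was on the array under a single gene, so the organ could not be checked.

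Photosystem II, the cytochrome b6f complex and photosystem I act in series in the thylakoid membrane and are mosaics of plastid-encoded and nuclear-encoded subunits. Their assembly needs nuclear-encoded helper proteins that are imported into the chloroplast and are not part of the finished complex. LPA19 is a homolog of the photosystem II protein PSB27 and helps the reaction centre protein D1 to mature. CCB3 belongs to the pathway that attaches a heme covalently to cytochrome b6. ATAB2 is an RNA-binding protein needed for the translation of plastid mRNAs that encode photosystem reaction centre proteins.

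Array values are intensities in arbitrary units. Array medians ran from 0.169 to 0.392 in pStau and from 0.405 to 0.485 in H2O, and 12.3% to 17.3% of values in pStau and 11.5% to 13.1% in H2O were exactly 0. Array totals ran from 3139 to 3541 in pStau and from 3054 to 3562 in H2O, so the groups differed in their medians and hardly in their totals. Because the medians differed by up to 2.87-fold, values were quantile normalized before the test. That step gives the positive values of all arrays 1 distribution, and so removes a difference of this kind. Both the deposited and the normalized intensity are given below. Arrays 3 to 6 of pStau had the lowest medians, 0.169 to 0.228, and changes are given with and without them below. Consecutive arrays of a group (1 and 2, 3 and 4, 5 and 6) were more alike than other arrays of that group, and are called array sets here.

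The question is whether transcript levels of these genes differ between the pStau and H2O arrays. The labels give a pH for pStau alone, and only those plants were moved from water to another solution. Effects of staurosporine, of pH and of that change of solution cannot be told apart here. CCB3 was 1.79-fold lower in pStau and LPA19 1.70-fold lower, and both passed the test, whereas ATAB2 was 1.15-fold lower and did not pass. Thus 2 of the 3 genes were called, both lower. Over all 3256 probes tested 35.3% were called in either direction and 18.8% were called lower, so a call on its own does not set these genes apart. In bulk RNA, fewer cells of a type and less transcript per cell cannot be told apart.

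CCB3, the cytochrome b6 heme factor, had deposited intensities with a lowest value of 0.050, a median of 0.0785 and a highest value of 0.231 on the pStau arrays, against 0.322, 0.348 and 0.417 on the H2O arrays. Every pStau array lay below every H2O array. Among all tested probes 20.2% showed this on the deposited values. After normalization the lowest, median and highest intensities were 0.120, 0.164 and 0.211 in pStau, against 0.231, 0.281 and 0.366 in H2O. The groups still did not overlap, which held for 9.28% of tested probes in that direction. The normalized mean was 0.160 ± 0.0319 in pStau and 0.285 ± 0.0517 in H2O (SD, n = 6 each). The log2 change was -0.84 ± 0.15 (SE, 95% interval -1.18 to -0.50, limma adjusted p = 0.00256, n = 6 per group).

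LPA19, the PSB27 homolog of photosystem II assembly, had deposited intensities of 0.0336 at the lowest, 0.0705 at the median and 0.277 at the highest on pStau arrays, against 0.298, 0.328 and 0.401 on H2O arrays. The groups did not overlap on the deposited values, which held for 20.2% of tested probes in that direction. After normalization the lowest, median and highest were 0.0890, 0.137 and 0.252 in pStau, against 0.232, 0.253 and 0.318 in H2O. Here the groups overlapped, because pStau arrays 1 and 2 (0.252 and 0.245) lay within the H2O range while the other 4 pStau arrays lay below it. The normalized mean was 0.166 ± 0.0668 in pStau and 0.266 ± 0.0367 in H2O (SD, n = 6 each). The log2 change was -0.77 ± 0.24 (SE, 95% interval -1.29 to -0.24, limma adjusted p = 0.0277, n = 6 per group). The LPA19 call was lost when array sets entered as a random block (adjusted p = 0.122), in an exact rank sum test (adjusted p = 0.103), and without array number 3, 4, 5 or 6 of both groups (adjusted p from 0.0794 to 0.0849).

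ATAB2, the plastid translation factor, had deposited intensities of 0.0750, 0.0989 and 0.252 (lowest, median and highest) on pStau arrays, against 0.217, 0.295 and 0.348 on H2O arrays. Of the 6 pStau arrays, 5 lay below every H2O array. After normalization the groups overlapped over most of their range, at 0.141, 0.198 and 0.230 in pStau and 0.188, 0.213 and 0.264 in H2O, and 2 pStau arrays lay below every H2O array. The normalized mean was 0.192 ± 0.0287 in pStau and 0.219 ± 0.0276 in H2O (SD, n = 6 each). The log2 change was -0.20 ± 0.12 (SE, 95% interval -0.46 to 0.069, limma adjusted p = 0.235, n = 6 per group), so a fall of the size seen for CCB3 lay outside this interval.

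**Figure D1:**
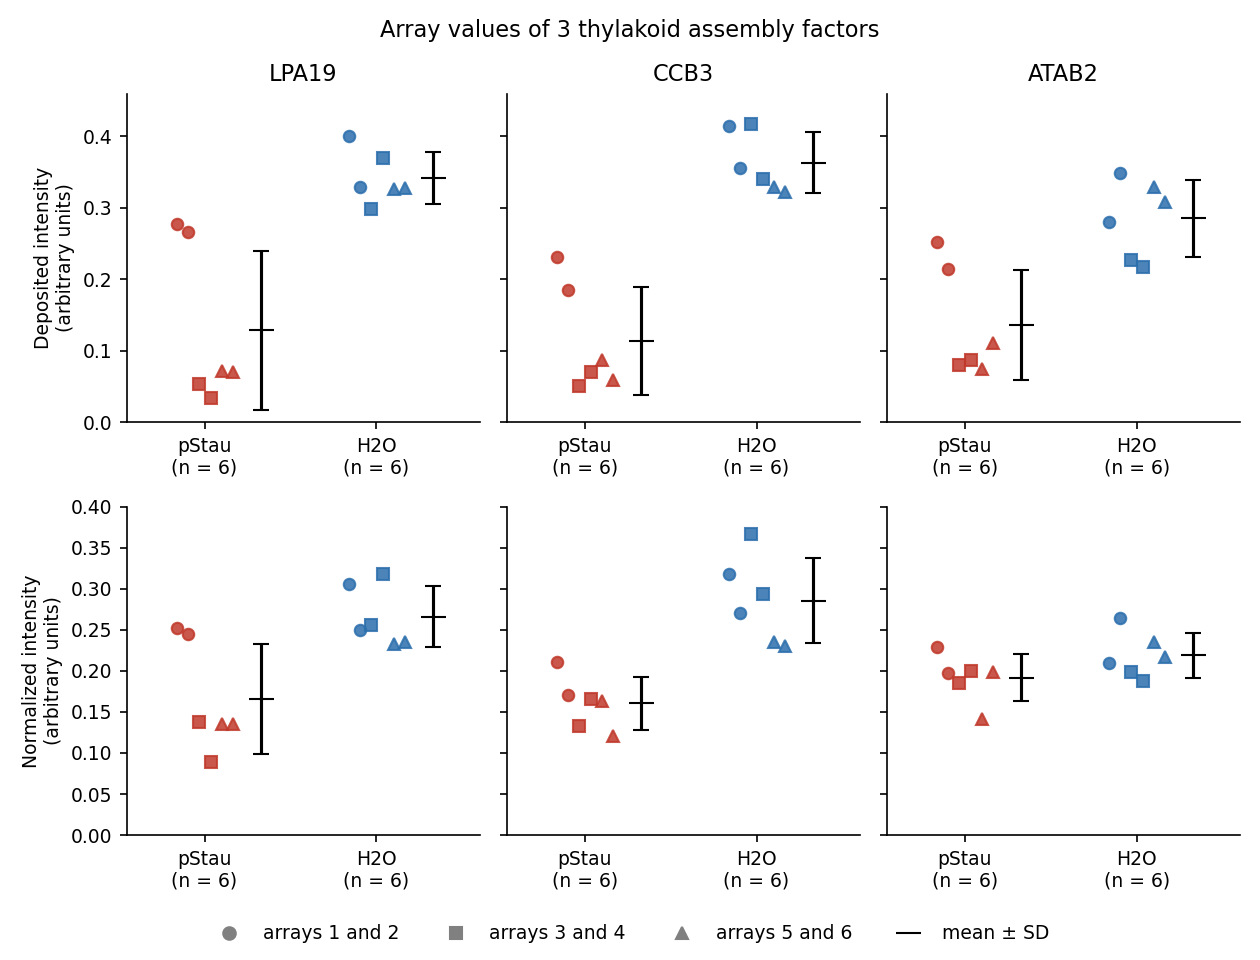
Intensity of LPA19, CCB3 and ATAB2 (columns) on each of the 6 pStau and 6 H2O arrays, as deposited (top) and after quantile normalization (bottom), in arbitrary units; marker shapes show the array sets and bars the mean ± SD. CCB3 separates the groups in both rows, LPA19 has pStau arrays 1 and 2 near the H2O arrays once normalized, and ATAB2 overlaps in the bottom row.

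The place of a probe among all probes of its own array gives a reading that needs no scaling between arrays. Quantile normalization also works from ranks within each array, so this reading is not independent of the normalized values. Zeros were ranked too, and their share differed between arrays. CCB3 stood at percentiles 23.2 to 33.1 of the pStau arrays, with a median of 27.6, against 35.0 to 50.7 and a median of 41.0 on H2O arrays. LPA19 stood at 23.3 to 37.9 on pStau arrays, with a median of 26.1, against 35.0 to 45.8 and a median of 37.7 on H2O arrays. ATAB2 stood at 25.4 to 35.3 on pStau arrays, with a median of 32.4, against 30.3 to 38.5 and a median of 32.8 on H2O arrays. The medians of all 3 probes thus lay in the dimmer part of the array in both groups, CCB3 passed the middle on 1 H2O array, and none was listed at 0 on any of the 12 arrays. By rank, as after normalization, CCB3 kept its groups apart and LPA19 overlapped through pStau arrays 1 and 2. ATAB2 had nearly the same median rank in both groups. The share of all probes with groups apart by rank was not counted.

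The size of each change depended on how the arrays were scaled. On the deposited values the log2 change was -1.91 for CCB3, -1.87 for LPA19 and -1.22 for ATAB2, and all 3 passed (limma adjusted p = 0.00294, 0.00967 and 0.0104, n = 6 per group). With arrays scaled to the same total, ATAB2 also passed, with a log2 change of -1.23 (limma adjusted p = 0.00575). The median change over all tested probes was -0.80 on the deposited values and -0.82 with equal totals. Relative to that median the changes were -1.11 for CCB3, -1.06 for LPA19 and -0.41 for ATAB2 in both scalings. They agree by construction, because equal totals multiply each array by a constant factor. Centring on the median also moves all probes of an array alike. When each array was centred on its median, CCB3 was at -1.05 and LPA19 at -1.0, both passing, and ATAB2 was at -0.35 and did not pass (limma adjusted p = 0.107). The split of all called probes moved from scaling to scaling as well. It was 536 higher and 612 lower after quantile normalization, 183 and 1519 as deposited, 180 and 1628 with equal totals, and 915 and 487 when each array was centred on its median.

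**Figure D2:**
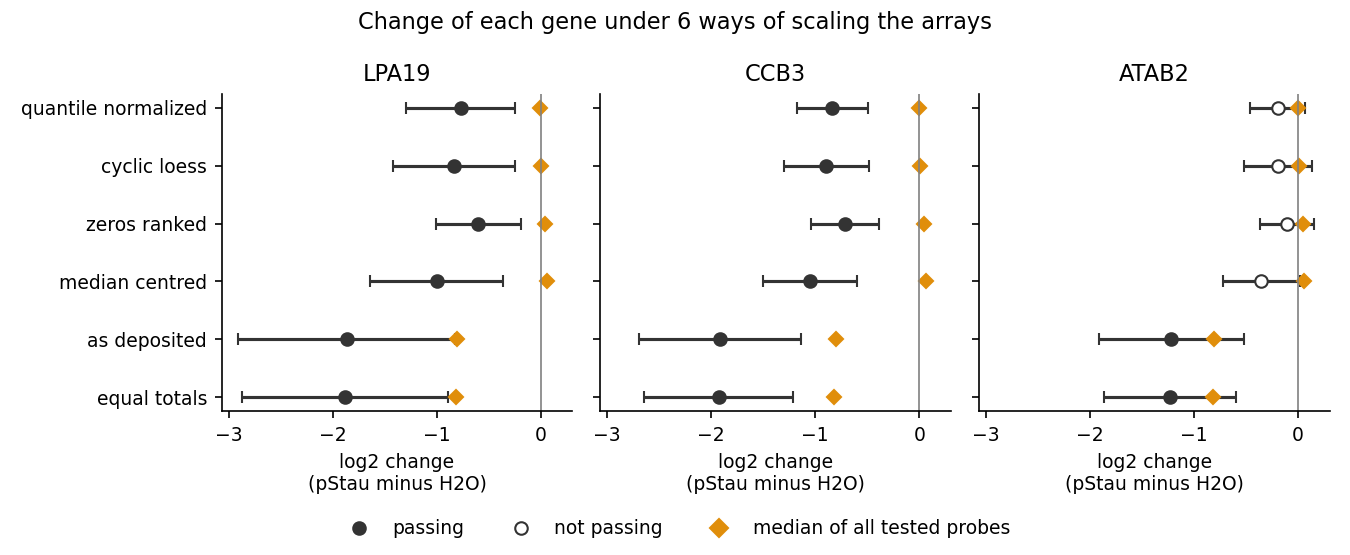
Log2 change of LPA19, CCB3 and ATAB2 (pStau minus H2O, with 95% interval, n = 6 per group) under 6 ways of scaling the arrays; filled circles passed an adjusted p of 0.05, and diamonds mark the median change of all tested probes. CCB3 and LPA19 lie left of the diamond and pass in all 6, and ATAB2 passes in the bottom 2, where the diamond itself lies at -0.80 and -0.82.

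The 3 array sets, each with its own pStau and H2O arrays, showed changes of unequal size on the normalized log2 scale. For CCB3 the change was -0.63 in the set of arrays 1 and 2, then -1.15 for arrays 3 and 4, and -0.73 for arrays 5 and 6, so its sign was the same in all 3 sets. LPA19 changed by -0.15, -1.37 and -0.79 in these sets, so nearly all of its fall came from arrays 3 to 6. ATAB2 changed by -0.15, -0.0070 and -0.44. The largest changes of CCB3 and LPA19 fell in arrays 3 and 4, where the pStau medians were lowest. Set by set, in the order above, 10.7%, 13.4% and 22.7% of tested probes had a change below that of CCB3. By this share CCB3 was most extreme in the set of arrays 1 and 2, not where its change was largest. For LPA19 the shares were 34.9%, 10.5% and 21.3%, lowest where its change was largest. Without arrays 3 and 4 of both groups the log2 change of CCB3 was -0.66 (limma adjusted p = 0.0542) and that of LPA19 -0.46 (adjusted p = 0.215), and neither passed. Without arrays 5 and 6, CCB3 passed at -0.91 (adjusted p = 0.0158) and LPA19 did not, at -0.78 (adjusted p = 0.181). Without arrays 1 and 2 both passed, at -0.94 for CCB3 and -1.07 for LPA19 (adjusted p = 0.00619 and 0.00308). The count of all probes called moved as well. It was 483 of 3201 without arrays 3 and 4, 506 of 3220 without arrays 5 and 6, and 1350 of 3208 without arrays 1 and 2. With all arrays it was 1148 of 3256, so these gains and losses are not particular to the 2 genes.

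Under the random block of array sets CCB3 was still called (limma adjusted p = 0.0488), as were 524 of all 3256 probes. With consecutive arrays averaged to 3 values per group, CCB3 had an adjusted p of 0.108, LPA19 of 0.211 and ATAB2 of 0.441, and 3 of all 3256 probes passed.

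**Figure D3:**
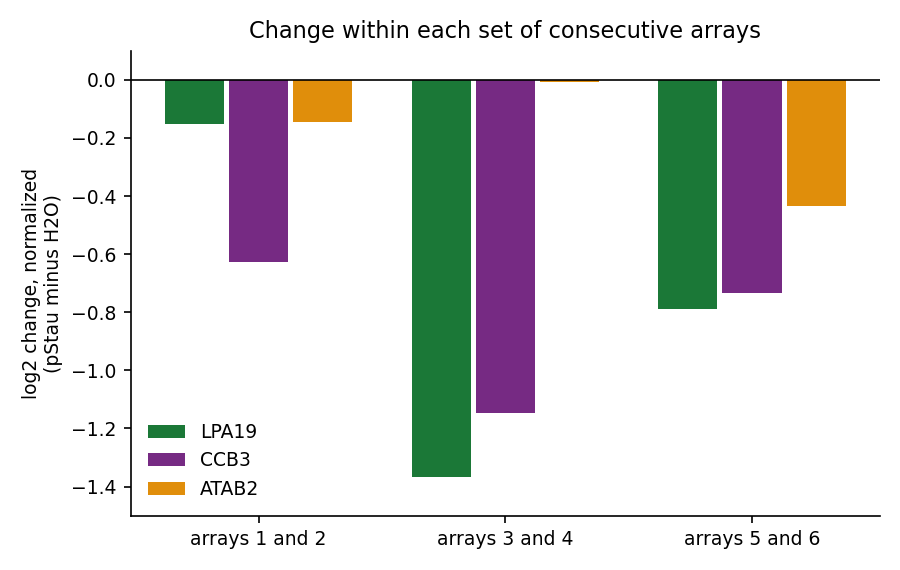
Log2 change on normalized values (pStau minus H2O) of LPA19, CCB3 and ATAB2 within arrays 1 and 2, 3 and 4, and 5 and 6; each bar is the mean of 2 pStau arrays minus the mean of 2 H2O arrays. CCB3 is between -0.63 and -1.15 throughout, LPA19 runs from -0.15 to -1.37, and ATAB2 stays between -0.0070 and -0.44.

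Ratios between the genes on the same array cancel any factor that multiplies all values of that array. They do not cancel a background added to the values or a scaling that varies with intensity. Within that limit they ask whether the genes changed unequally. The log2 ratio of CCB3 to ATAB2 ranged from -0.90 to 0.22 in pStau and from -0.00013 to 0.88 in H2O, and 5 of 6 pStau arrays lay below every H2O array. Its mean was -0.33 ± 0.40 in pStau and 0.36 ± 0.38 in H2O (SD, n = 6 each), a difference of -0.70. An exact two-sided permutation test over all 924 splits of the arrays gave p = 0.0130, or 0.0390 adjusted over the 3 pairs of genes compared. The ratios were added after the changes of these genes on the same arrays were seen. Their p-values do not cover that choice and are descriptive. With replicate numbers as pairs the exact sign-flip p was 0.0625, where 0.0312 is the smallest possible, and adjusted over the 3 pairs of genes it was 0.188 and did not pass. With consecutive arrays averaged the exact p was 0.1, the smallest that 3 against 3 allows, so this repeat could not pass.

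The log2 ratio of LPA19 to ATAB2 was -0.37 ± 0.62 in pStau and 0.28 ± 0.33 in H2O (SD, n = 6 each), a difference of -0.65 with an exact permutation p of 0.0455, which was 0.0682 after adjustment. Its pStau arrays spread from -1.37 to 0.31, and 3 of 6 lay below every H2O array. The log2 ratio of LPA19 to CCB3 was -0.039 ± 0.56 in pStau and -0.087 ± 0.21 in H2O (SD, n = 6 each), a difference of 0.048 (exact permutation p = 0.870). That ratio ran from -1.05 to 0.52 over the pStau arrays, so a p of this size does not show that the 2 genes changed alike.

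**Figure D4:**
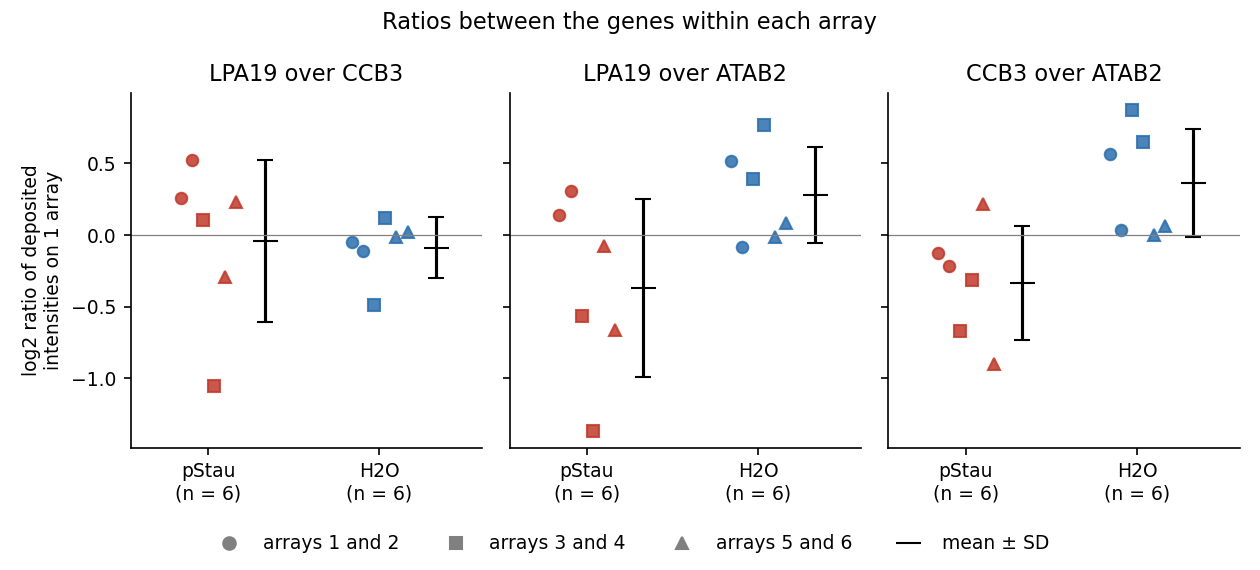
Log2 ratio of deposited intensities between 2 genes on the same array, for the 6 pStau and 6 H2O arrays, with mean ± SD; marker shapes show the array sets. CCB3 over ATAB2 lies lower in pStau with 5 of 6 arrays below all H2O arrays, LPA19 over ATAB2 spreads from -1.37 to 0.31 in pStau, and LPA19 over CCB3 is centred near 0 in both groups.

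Other genes of the same processes were taken from 12 lists of thylakoid assembly, targeting, electron transport and NDH complex genes, of which 16 of 138 genes, LPA19, CCB3 and ATAB2 included, had a probe with a single gene. Of the other 13, 3 rose, 4 fell and 6 did not pass, beside 536 higher and 612 lower among all 3256 probes tested (35.3% called). Of those, the 10 above 0 on every array held 3 that rose, 4 that fell and 3 that did not pass. A fit without probes holding a 0 called 1095 of 2641 probes. In that fit AT2G23070 (CKA4), among those that rose, lost its call (limma adjusted p = 0.0656). The 10 that were above 0 on every array had a median log2 change of -0.10, against -0.77 for the 3 assembly factors and -0.0041 for all tested probes. The value of -0.77 is that of LPA19 itself, with CCB3 at -0.84 and ATAB2 at -0.20. The 3 genes were chosen with earlier results of these data known, so this contrast is a description and not a test.

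Among assembly factors, PSB27, the photosystem II protein to which LPA19 is related, had a normalized mean of 1.35 ± 0.295 in pStau and 1.34 ± 0.727 in H2O (SD, n = 6 each). Its log2 change of 0.12 ± 0.28 (SE) did not pass, though median centring of the arrays gave 0.86, which did. AT1G54500, entered in the lists as the photosystem II rubredoxin RBD1, had a normalized mean of 0.224 ± 0.0647 in pStau and 0.252 ± 0.0611 in H2O. Its change of -0.18 ± 0.22 (SE) did not pass, and it passed at -1.14 as deposited and at -1.16 with equal totals. AT1G22700, entered as the photosystem I assembly factor PYG7, stood at -0.025 ± 0.16 (SE) and did not pass, though median centring gave 0.75, which did. The cytochrome c maturation factor CCS1 (AT1G49380) was listed at 0 on 4 pStau and 6 H2O arrays, and BFA1 (AT3G29185), of ATP synthase assembly, on 4 pStau and 5 H2O arrays, so neither gave a usable level.

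SECE1, a subunit of the translocase that brings proteins into the thylakoid, fell by 0.73 on the log2 scale (SE 0.18, limma adjusted p = 0.00940, n = 6 per group). Its normalized mean was 0.377 ± 0.0879 in pStau and 0.621 ± 0.116 in H2O (SD). Like LPA19, it showed almost no change in arrays 1 and 2 (-0.015), against -0.97 and -1.20 in the sets of arrays 3 and 4 and of arrays 5 and 6. Its call ended without arrays 3 and 4 (adjusted p = 0.132), without arrays 5 and 6 (0.162) and under the random block (0.0640).

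Of the complex subunits, PSAN of photosystem I had the largest fall of the 13 genes above 0 on every array, at -1.97 ± 0.14 (SE), with a normalized mean of 0.462 ± 0.0779 in pStau and 1.80 ± 0.286 in H2O (SD, n = 6 each). The antenna protein gene LHCB1.5 was at -0.84 and PSBY, a small photosystem II subunit, at -0.51, and both passed. Under median centring they were at 0.074 and 0.071 and did not pass. LHCB1.5 lost its call without arrays 1 and 2 (adjusted p = 0.0912), and PSBY without arrays 5 and 6 (0.0873) and with the random block (0.0609). PSBW, another small photosystem II subunit, rose by 0.42. It was at 0.13 and did not pass under cyclic loess, and it rose by 1.77 under median centring. CRR21, an editing factor for a plastid NDH transcript, rose by 0.51, but was at -0.13 as deposited and -0.14 with equal totals, neither passing, and lost its call under the random block (adjusted p = 0.0871), without number 5 (0.0569), without arrays 3 and 4 (0.0810) or without arrays 5 and 6 (0.139). The subunit gene NDHN was listed at 0 on 4 pStau and 6 H2O arrays. AT2G23070, entered as the plastid CK2 kinase subunit CKA4, rose by 0.29 (limma adjusted p = 0.0377) but fell by 0.40 as deposited and by 0.41 with equal totals, both passing, and its call ended with the replicate number as a block (adjusted p = 0.0686) and in 9 other alternatives that kept all arrays.

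**Figure D5:**
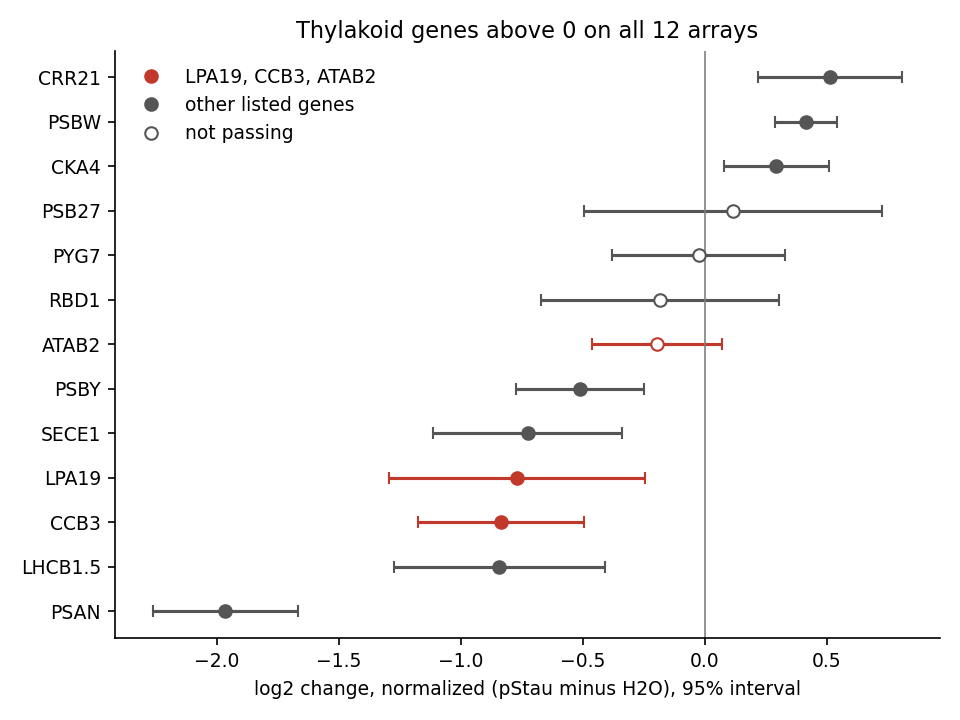
Log2 change on normalized values (pStau minus H2O, n = 6 per group) with 95% interval for the 13 listed thylakoid genes above 0 on all 12 arrays; filled circles passed an adjusted p of 0.05. CCB3 and LPA19 lie at -0.84 and -0.77, between LHCB1.5 and SECE1, and ATAB2 lies at -0.20 with an interval that includes 0.

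Within groups, the 3 assembly factors did not vary closely together. The Pearson correlation of deviations from the group means over the 12 arrays was 0.48 between LPA19 and CCB3, 0.16 between LPA19 and ATAB2 and -0.053 between CCB3 and ATAB2. Among the 529 other single-gene probes above 0 on every array, CCB3 ranked 130 by likeness to LPA19. The probes most like LPA19 were those of AT2G14660 (r = 0.95), AT1G74070 (r = 0.94) and AT5G62840 (r = 0.91). Of these, AT2G14660 and AT1G74070 fell by 0.83 and 2.1 on the log2 scale and AT5G62840 was at 0.11 and did not pass. Those most like CCB3 were AT2G23890, AT3G02450 and AT4G02040, with r of 0.81, 0.81 and 0.80. AT3G02450 fell by 1.23 and AT2G23890 and AT4G02040 did not pass, at -0.36 and -0.27. Those most like ATAB2 were AT4G34310, AT2G44760 and AT3G50180, with r of 0.67, 0.67 and 0.66. AT4G34310 fell by 0.83 and AT2G44760 and AT3G50180 did not pass, at -0.057 and -0.38. The points of these correlations share their arrays and array sets, and so describe shared variation of any source.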

How the data were processed

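The deposited values are array intensities in 1 table of 12 arrays. Their scale, centring, background correction and dyes are not given in the sources used here, and they were taken as linear. The fold changes are on a floored log2 scale. Probes were named through the platform annotation and the RefSeq table of TAIR10.1, used for names alone.

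Positive values were quantile normalized, zeros and values under the 1st percentile were set to it (0.0167), and log2 was taken. The 183 probes at 0 on every array were left out. The comparison used limma 3.58.1 (lmFit, eBayes; R 4.3.3), two-sided, with Benjamini-Hochberg adjustment over 3256 probes and a threshold of 0.05. The fit was tested on simulated data in which every array was drawn independently. That test does not cover the likeness of consecutive or same-numbered arrays. Ratios used deposited values and were added after the data were seen.

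The genes and lists were chosen with earlier results of these data known. The text names the 3 genes, listed genes with a single-gene probe, and the 3 probes most correlated with each. Array number limits precision. Same-numbered arrays had correlated deviations (r from 0.31 to 0.54, all 6 numbers), though the labels do not say why. The numbers served as pairs only in the replicate block and the sign-flip test. The main fit and the permutation test of the ratios did not pair them. Alternatives covered scaling, zeros, floor, filters, variance, blocks, tests and left-out arrays. Figures were drawn with matplotlib 3.10.9.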

Additional observations from a re-analysis of the deposited data

Results flagged for a closer look

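Among 26 groups of 6 arrays, those of the 13 listed genes above 0 on every array, 2 held an array far from the others, and chance flags about 1 in 20 groups. Neither was a group of LPA19, CCB3 or ATAB2. On pStau array 2 the normalized log2 level of AT1G22700 (PYG7) was 0.56. The nearest pStau array stood at 0.44, and that gap makes up 0.752 of the pStau range. The level of PSB27 on H2O array 5 was 1.48, while its nearest H2O neighbour stood at 0.31, which makes up 0.657 of the H2O range.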

How the results depend on the processing

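CCB3 and LPA19 were lower in pStau under every alternative run, with log2 changes from -1.93 to -0.56 and from -1.88 to -0.49 before any array was left out. CCB3 kept its call in 13 of 15 such alternatives and LPA19 in 11 of 15. The 5th percentile floor, the filters of probes and the variance option left the log2 changes of both genes as in the main fit. A call kept there is a weak check. Consecutive arrays averaged left CCB3 at -0.84 and LPA19 at -0.77, with adjusted p of 0.108 and 0.211, and 0.152 and 0.209 with the array set as a block. LPA19, at the same -0.77, also lost its call under the random block and in the exact rank sum test. ATAB2 gained a call as deposited (-1.22) and with equal totals (-1.23). Of the 3 genes, 1 was called with the random block and in the rank sum test, and 0 with arrays averaged, with or without the block, where CCB3 alone had an unadjusted p under 0.05. The count of all probes called was 1148, against 1808 with equal totals, 524 with the random block, 3 with arrays averaged and 0 when that average was also blocked by set, where 870 had an unadjusted p under 0.05. The replicate number as a block called 1279 probes and changed no call of CCB3 (adjusted p = 0.00678), LPA19 (0.0431) or ATAB2 (0.269). For the ratio of CCB3 over ATAB2 (-0.70) the paired adjusted p was 0.188, where 0.0312 is the smallest unadjusted p possible. With arrays averaged it was 0.300, where no p under 0.1 is possible, so that repeat could not pass. The paired sign-flip p of 0.0625 was above its smallest possible value, and the call of that ratio did not hold with pairing. Of the other listed genes the replicate block changed the call of CKA4 and no other.

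Directions turned for CRR21 (-0.13 as deposited, -0.14 with equal totals), CKA4 (-0.40 and -0.41, both still past the threshold), PSB27 (-0.0064 and -0.020), PSBY (0.071), LHCB1.5 (0.074) and PYG7 (0.75), the last 3 with arrays centred on their median, and PYG7 was at 0.00019 with zeros ranked. The cause was not tested.

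Leaving out 1 array number or 1 array set of both groups gave log2 changes from -0.94 to -0.66 for CCB3, from -1.07 to -0.46 for LPA19 and from -0.28 to -0.079 for ATAB2. Of the 3 genes 0 to 2 were called, and 483 to 1350 probes in all. The lowest total came without arrays 3 and 4, and it was 506 without arrays 5 and 6, 747 without number 5 and 751 without number 6. The ratio ranged from -0.88 to -0.42 for CCB3 over ATAB2, from -0.98 to -0.20 for LPA19 over ATAB2 and from -0.16 to 0.29 for LPA19 over CCB3. CCB3 over ATAB2 passed without number 2 or 5 (adjusted p = 0.0476 and 0.0238) and in no other of these 9 repeats. LPA19 over ATAB2 passed without number 2 alone (0.0476). PSB27 ranged from -0.18 to 0.39, PYG7 from -0.23 to 0.19 and RBD1 from -0.42 to 0.12, all without a call.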
